A study of Mus musculus with 64 samples.

Results

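The regulators of cardiac fuel use described here are 10 genes: the nuclear receptors Ppara, Ppard, Pparg, Esrra, Esrrb and Esrrg, the receptor partner Rxra, the coactivators Ppargc1a and Ppargc1b, and the mitochondrial transcription factor Tfam. They were chosen by gene symbol, and all 13 probes that the platform annotation gives these symbols were taken, out of 25697 probes and 16593 named genes on the array. Pparg has 3 probes, Tfam has 2 and the other genes have 1 each. RNA came from entire hearts of male C57Bl/6J mice and was read on 64 Illumina MouseRef-8 v2 bead arrays. The knockout mice, called CBK in the labels, lack BMAL1 in cardiomyocytes, and the wild type mice were their littermates. All mice had chow and water freely and were kept with 12 h of light in each day. Hearts were taken every 3 h at 8 zeitgeber times (ZT, the time since the lights went on in hours). Each genotype has 4 arrays at each time and 32 in all. The Cre line behind the deletion, the age of the mice and whether the littermates carried Cre or floxed alleles are not given in the sources used here. Nor is it stated that different arrays hold different mice, so the p-values are measured against a spread between arrays that may be partly technical.

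BMAL1, encoded by Arntl, pairs with CLOCK to form the activator of the circadian clock. PPAR proteins are receptors for fatty acids and their derivatives and bind DNA as pairs with an RXR. Estrogen-related receptors (ERR) have no known natural hormone and bind a related DNA element. PGC-1 proteins do not bind DNA themselves but are recruited by PPAR, ERR and other factors. In the heart these proteins together are known for driving genes of fatty acid oxidation, the citric acid cycle and respiration. Tfam packages mitochondrial DNA and takes part in its transcription.

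Levels are log2 of a background-corrected, quantile-normalized intensity, and a probe was called detected on an array where its deposited detection p was under 0.01. Levels of different probes are not compared, since each binds with its own strength. Of 25697 probes, 12101 were detected on at least 4 arrays and were tested. A set of 6 arrays, those with the lowest sample numbers, tended to differ from the rest, though the ranges overlap on each measure given in this paragraph. The 6 arrays with sample numbers 1 to 22 are wild type ZT 6 replicate 1 and knockout ZT 6 replicate 2, ZT 0 replicates 6 and 8, and ZT 12 replicates 19 and 22. After each group's mean was removed, the first principal component held 19.4% of the variance, and these 6 arrays lay at 16.01 to 33.17 on it against -32.6 to 20.2 on the other 58. Their median raw signal was 154 to 196 intensity units, against 119 to 188, and 9835 to 10496 probes were detected on them, against 9237 to 10605. The summed signal of 9 cardiomyocyte marker genes was 17.1 to 17.3 (log2) on the 6 arrays and 17.2 to 17.4 on the other 58, and that of fibroblast markers was 13.8 to 13.9 against 13.2 to 13.9. The myeloid sum was 11.61 to 11.88 (median 11.67) on the 6 arrays and 11.63 to 12.72 (median 12.16) on the others. Because 5 of the 6 are knockout arrays, the members' 24 h means and the calls named below are also given without them, a choice made after seeing the data.

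The deletion itself was looked at through Arntl. Its level at ZT 0 was 7.70, 7.87, 8.18 and 8.31 on the wild type arrays and 6.90, 7.21, 7.27 and 7.42 on the knockout arrays, so the groups did not overlap there. At ZT 15 the order was turned, with 4.99, 5.01, 5.22 and 5.46 in wild type against 6.09, 6.55, 6.68 and 6.78 in knockout, a difference of 1.35 (adjusted p = 8.4e-07 in limma). At ZT 12 it was 0.79 higher in knockout. In wild type Arntl was detected on 0 of 4 arrays at ZT 15, 1 at ZT 12 and 2 at ZT 9. In knockout it was detected on 4 of 4 at ZT 12 and ZT 15. The wild type trough thus lay near background, so the sizes of these differences and of the wild type amplitude are uncertain. The 24 h amplitude of Arntl was 1.59 ± 0.08 (log2, SE) in wild type and 0.58 ± 0.08 in knockout (adjusted p = 2.1e-09 in limma for the rhythm difference), while the 24 h mean differed by 0.07 ± 0.08. The place of that probe in the gene was not determined, so it does not check the deletion.

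The members split into probes detected on every array and probes at or near background. The probes of Ppargc1a, Ppargc1b, Esrra and Esrrb, both probes of Tfam and the first probe of Pparg were detected on 64 of 64 arrays. Esrrg was detected on 0 of 64 arrays, Ppard on 1, and the other probes of Pparg on 1 and 0. These 4 probes did not pass the filter, so 9 member probes of 8 genes were tested and no statement is made about Ppard or Esrrg. The raw intensity of the Esrrg probe ran from 102 to 183, close to the array medians given above, and that of Ppard from 109 to 194. Absence of signal on such probes shows only that the probe was not above background, since ERRγ and PPARδ are known in the heart.

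Ppara, the receptor best known for fatty acid oxidation in heart and liver, and Rxra, the shared partner, lay near background. The Ppara probe was detected on 22 arrays, 15 of them wild type and 7 knockout, and on all 4 arrays of a group only in wild type at ZT 15. It was detected on none of the 4 arrays in wild type at ZT 12 and in knockout at ZT 3, 6, 12 and 18. Rxra was detected on 31 arrays, 18 wild type and 13 knockout, and on all 4 arrays of no group. The sizes of differences of these 2 genes are uncertain for that reason. On GRCm38.p6 the 4 genes that the results turn on span chr12:86361117-86521628 (Esrrb), chr5:51454249-52115853 (Ppargc1a), chr19:6910977-6922048 (Esrra) and chr15:85734910-85806851 (Ppara).

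**Figure D1:**
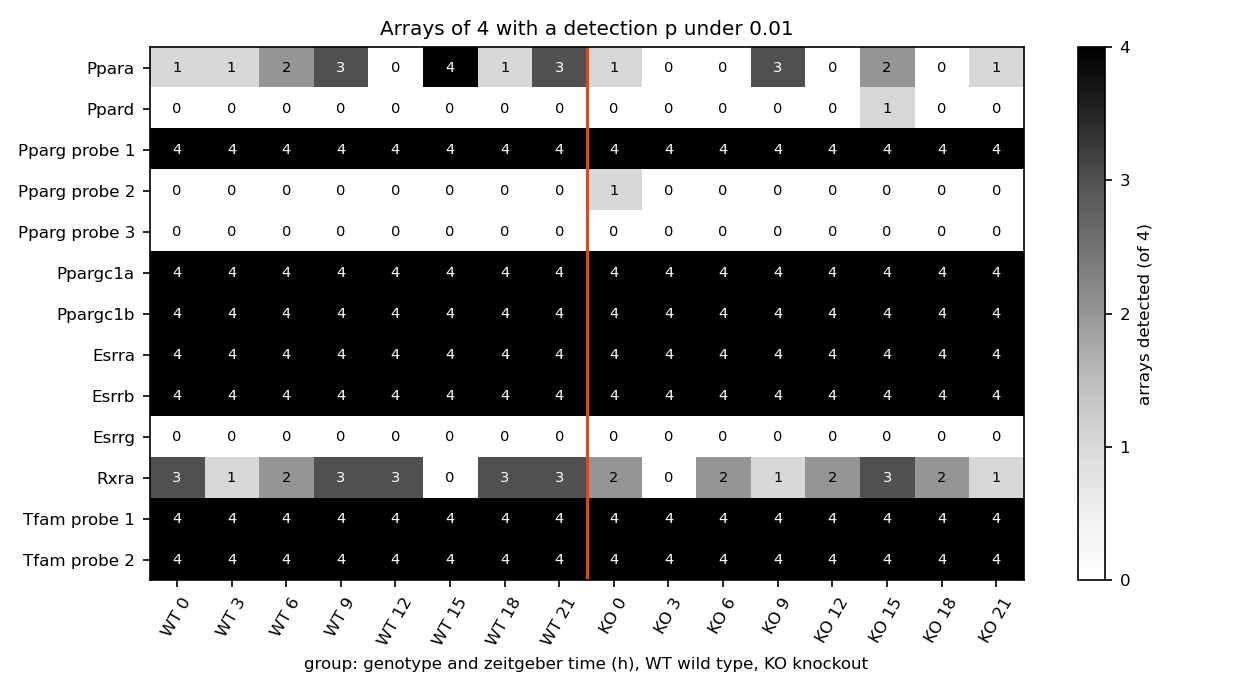
Number of arrays, of 4, on which each of the 13 member probes (vertical axis) had a detection p under 0.01, in each of the 16 groups (horizontal axis, genotype and zeitgeber time in hours); darker squares stand for more arrays. The probes of Ppargc1a, Ppargc1b, Esrra, Esrrb and Tfam and the first probe of Pparg reach 4 in every group, whereas Ppara and Rxra vary between groups and Esrrg stays at 0.

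The question put to the members first was whether their mean over the day differed between genotypes. Esrrb, Ppargc1a, Esrra and Ppara were lower in knockout hearts, in that order of size for the well-detected genes, and no member probe was higher. Esrrb fell 1.39-fold, Ppargc1a 1.34-fold and Esrra 1.11-fold, and no fold is given for Ppara, which was below detection on most arrays. Thus 4 of 9 tested member probes were called lower, where 17.4% of all probes tested were called lower, 17% higher and 34.4% in either direction. The test was a cosinor fit in limma (a mean, a cosine and a sine of 24 h for each genotype, and a term for the alternating sets of times ZT 0, 6, 12, 18 and ZT 3, 9, 15, 21), adjusted by Benjamini-Hochberg over 12101 probes with a threshold of 0.05. The median difference over all probes tested was -0.007. Without the 6 arrays Esrrb, Ppargc1a and Esrra stayed past the threshold and Ppara did not, where 16.2% of all probes were called lower, 17.3% higher and 33.6% in either direction. Within each set of times alone Esrrb differed by -0.55 (ZT 0, 6, 12, 18) and -0.41 (ZT 3, 9, 15, 21) and passed in both, Ppargc1a by -0.39 and -0.46, Esrra by -0.13 and -0.17, and Ppara by -0.19 and -0.21. In the first set alone Ppargc1a and Esrra did not pass (adjusted p = 0.167 and 0.0836 in limma), nor did Ppara in either. These are whole-heart RNA samples, in which fewer cells of a type and less RNA per cell cannot be told apart.

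Esrrb, an ERR family receptor best known from pluripotent cells and the inner ear, had the clearest difference. Its level over the 32 wild type arrays was 9.36 at the lowest, 9.75 at the median and 10.11 at the highest. Over the 32 knockout arrays it was 8.79, 9.24 and 9.67. On 24 of 32 knockout arrays Esrrb lay below the lowest wild type array, and 19 of 32 wild type arrays lay above the highest knockout array. The 24 h mean of Esrrb, knockout minus wild type, was -0.48 ± 0.04 (log2, SE, 32 arrays per genotype, 95% interval -0.56 to -0.39, adjusted p = 8.5e-15 in limma) and it was lower at 8 of 8 times. Without the 6 arrays it was -0.42 ± 0.04 (31 wild type and 27 knockout arrays, adjusted p = 3.4e-14).

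Promoter sequences are shown for the well-detected members that were lower. They come from RefSeq (build GRCm38.p6) and run from 250 bases before the annotated start to 50 after it, read 5′ to 3′ on the gene's strand. Windows of 9 of the 10 members were used here, all but Ppargc1b. Capitals mark matches, on either strand, to any of 7 motifs: the E-box CACGTG bound by BMAL1 and CLOCK, the related CACGTT, the ERR element TCAAGGTCA, its core AGGTCA that REV-ERB and ROR receptors also bind, the PPAR and RXR element DR1 (AGGTCA repeated after 1 base), the D-box TTANNTAA, and the cAMP response core TGACGT. The core AGGTCA lies inside the ERR and PPAR elements, so their matches overlap. Esrrb has 2 annotated starts, on the plus strand of chromosome 12, at chr12:86360867-86361166 and chr12:86421394-86421693.
Esrrb window 1: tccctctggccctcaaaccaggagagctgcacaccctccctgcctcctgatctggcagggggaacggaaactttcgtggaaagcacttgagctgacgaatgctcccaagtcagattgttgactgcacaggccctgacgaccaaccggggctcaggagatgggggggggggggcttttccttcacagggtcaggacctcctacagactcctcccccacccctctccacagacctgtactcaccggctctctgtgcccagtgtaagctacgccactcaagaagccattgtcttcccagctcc
Esrrb window 2: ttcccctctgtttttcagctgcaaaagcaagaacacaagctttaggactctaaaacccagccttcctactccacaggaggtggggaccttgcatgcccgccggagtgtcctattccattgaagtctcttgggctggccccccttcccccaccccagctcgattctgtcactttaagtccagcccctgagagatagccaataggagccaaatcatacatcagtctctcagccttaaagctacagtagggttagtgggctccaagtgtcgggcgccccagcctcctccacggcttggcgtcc
Neither window holds any of the 7 motifs.

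At single times of day Esrrb differed beyond the spread of the arrays at most times. At ZT 0 the wild type arrays read 9.77, 9.88, 9.90 and 10.11 and the knockout arrays 9.03, 9.05, 9.37 and 9.60. At ZT 3 they read 9.36, 9.39, 9.40 and 9.42 against 9.01, 9.11, 9.17 and 9.26. At ZT 6 they read 9.50, 9.53, 9.69 and 9.77 against 9.05, 9.10, 9.40 and 9.67. Only ZT 6 had overlap between genotypes, where 1 knockout array lay above 2 wild type arrays. At ZT 9 the values were 9.57, 9.65, 9.70 and 9.77 against 8.92, 9.04, 9.22 and 9.27. At ZT 12 they were 9.80, 9.81, 9.83 and 9.84 against 8.79, 9.12, 9.36 and 9.44. At ZT 15 they were 9.60, 9.67, 9.77 and 9.78 against 9.17, 9.19, 9.26 and 9.46. At each of these 3 times every wild type array lay above every knockout array. At ZT 18 the values were 9.78, 9.90, 9.91 and 9.98 against 9.28, 9.28, 9.34 and 9.41, and at ZT 21 they were 9.57, 9.59, 9.66 and 9.73 against 9.12, 9.16, 9.33 and 9.44.

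Esrrb therefore showed no overlap at 7 of 8 times. The share of all probes without overlap was 12.6% at ZT 0, 11.4% at ZT 3, 7.45% at ZT 6, 7.93% at ZT 9, 13% at ZT 12, 12% at ZT 15, 12.9% at ZT 18 and 14.5% at ZT 21. In a limma fit with a mean per group, the Esrrb difference passed the threshold at ZT 0 by -0.65 ± 0.12 (SE, 4 arrays per group, adjusted p = 9.1e-05). It also passed at ZT 9, 12, 15 and 18, where it was -0.56, -0.64, -0.43 and -0.56 with adjusted p-values of 0.00065, 9.9e-05, 0.013 and 0.00058. It did not pass at ZT 3, 6 and 21, where it was -0.26, -0.32 and -0.37 with adjusted p-values of 0.293, 0.125 and 0.0502. Esrrb was the only member probe called at any single time. In that fit 10.8% of all probes were called at ZT 0, 3.74% at ZT 3, 3.74% at ZT 6, 8.54% at ZT 9, 6.81% at ZT 12, 5.18% at ZT 15, 5.35% at ZT 18 and 4.34% at ZT 21. With arrays scaled by their medians in place of quantile normalization, the calls at ZT 9, 12, 15 and 18 were lost, at -0.50, -0.53, -0.34 and -0.49. Leaving out the 6 arrays brought the Esrrb difference to -0.43 at ZT 0 and -0.42 at ZT 12, which still passed (adjusted p = 0.0292 and 0.0333 in limma), where 2.79% and 2.92% of all probes were called. It also passed then at ZT 21 (adjusted p = 0.0097), where 5.14% were called.

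Ppargc1a encodes PGC-1α, the coactivator induced by cold, exercise and fasting. Its level was 7.82 at the lowest, 8.45 at the median and 10.03 at the highest over 32 wild type arrays, and 7.13, 7.99 and 9.18 over 32 knockout arrays. The genotypes overlapped, with 9 knockout arrays below the lowest wild type array and 1 wild type array above the highest knockout array. The 24 h mean of Ppargc1a was 8.52 in wild type and 8.10 in knockout, a difference of -0.43 ± 0.11 (log2, SE, 32 arrays per genotype, 95% interval -0.65 to -0.20, adjusted p = 0.002 in limma), and it was lower at 8 of 8 times. The highest wild type value, 10.03, and 5 of the higher knockout values, 8.62 to 9.10, belong to the 6 arrays that stood apart. Without those 6 arrays Ppargc1a differed by -0.53 ± 0.09 (31 wild type and 27 knockout arrays, adjusted p = 7.1e-07), a 1.45-fold fall.

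Over all arrays the difference of Ppargc1a was widest at ZT 18, the middle of the dark phase, and next widest at ZT 21. At ZT 18 the wild type arrays read 8.11, 8.53, 8.64 and 8.98 and the knockout arrays 7.59, 7.61, 7.66 and 7.84. At ZT 21 they read 8.61, 8.68, 8.83 and 8.86 against 7.93, 7.98, 8.05 and 8.26. At ZT 3 they read 8.37, 8.41, 8.45 and 8.75 against 7.78, 8.10, 8.13 and 8.18. At these 3 times the genotypes did not overlap, and at the other 5 they did. Of all probes, 11.4% had no overlap at ZT 3, 12.9% at ZT 18 and 14.5% at ZT 21. Over all 64 arrays Ppargc1a passed at no single time, the nearest being ZT 18 (-0.89 ± 0.33, SE, 4 arrays per group, adjusted p = 0.124 in limma). Without the 6 arrays, none of which is from ZT 18, the same difference had an SE of 0.24 and passed (adjusted p = 0.0128), where 6.4% of all probes were called. The SE is smaller because the fit shares 1 estimate of the spread over all groups. At ZT 0 the difference of Ppargc1a was -0.15 with the 6 arrays and -0.71 without them, and at ZT 12 it was -0.12 and -0.75; neither time passed either way. Whether the difference varied over the day was tested as the rhythm difference, given with the rhythms, and it did not pass.

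The Ppargc1a window lies on the minus strand at chr5:51567676-51567975, inside the gene span given above, and no other window of this gene was used. The 5′ end of that span, at 52115853, was not scanned. The window holds 1 motif, the cAMP response core, the short element bound by CREB-family factors that are known to act on this gene. The match starts 50 bases before the start site and is on the other strand, so it reads as its complement.
Ppargc1a: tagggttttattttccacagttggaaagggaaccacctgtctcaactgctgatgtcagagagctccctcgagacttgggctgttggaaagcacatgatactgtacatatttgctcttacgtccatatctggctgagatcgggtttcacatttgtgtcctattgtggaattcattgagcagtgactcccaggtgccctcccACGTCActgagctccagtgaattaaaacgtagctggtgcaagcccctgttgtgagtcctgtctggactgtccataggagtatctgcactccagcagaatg
The same core was found in 7.51% of all 32851 promoter windows of this length.

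Esrra encodes ERRα, an ERR protein abundant in tissues that burn much fat, the heart among them. Its level was 11.07 at the lowest, 11.39 at the median and 11.76 at the highest in wild type and 10.93, 11.25 and 11.63 in knockout (32 arrays each). The ranges overlapped widely, with 6 knockout arrays below the lowest wild type array. The 24 h mean of Esrra differed by -0.15 ± 0.03 (log2, SE, 95% interval -0.22 to -0.08, adjusted p = 0.00023 in limma) and by -0.17 ± 0.04 without the 6 arrays (adjusted p = 9e-05). It was lower at 8 of 8 times, with differences of -0.22 to -0.09, and passed at none of them. The call depends on the scaling: under median scaling, which moved the median of all probes by 0.07, Esrra differed by -0.05 (adjusted p = 0.544). Under that scaling 824 probes were called lower and 2969 higher, against 2100 and 2059.
Esrra: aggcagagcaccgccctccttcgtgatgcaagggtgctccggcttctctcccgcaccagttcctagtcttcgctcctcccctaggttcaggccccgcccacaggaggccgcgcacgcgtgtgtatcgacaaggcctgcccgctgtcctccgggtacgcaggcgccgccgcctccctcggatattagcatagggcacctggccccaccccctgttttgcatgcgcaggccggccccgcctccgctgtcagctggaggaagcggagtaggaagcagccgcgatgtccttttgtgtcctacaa
The Esrra window, on the minus strand at chr19:6921759-6922058, holds none of the 7 motifs.

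Ppara was lower by -0.20 ± 0.07 (log2, SE, 32 arrays per genotype, adjusted p = 0.0295 in limma), with levels of 4.88, 5.56 and 6.28 (lowest, median, highest) in wild type and 4.75, 5.39 and 5.93 in knockout. The genotypes overlapped at 8 of 8 times. The call did not hold without the 6 arrays (-0.18, adjusted p = 0.077), nor without wild type ZT 0 replicate 87 (-0.17, adjusted p = 0.0516). Of the 4 genes called lower, Ppara is the one near background and close to the threshold.

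**Figure D2:**
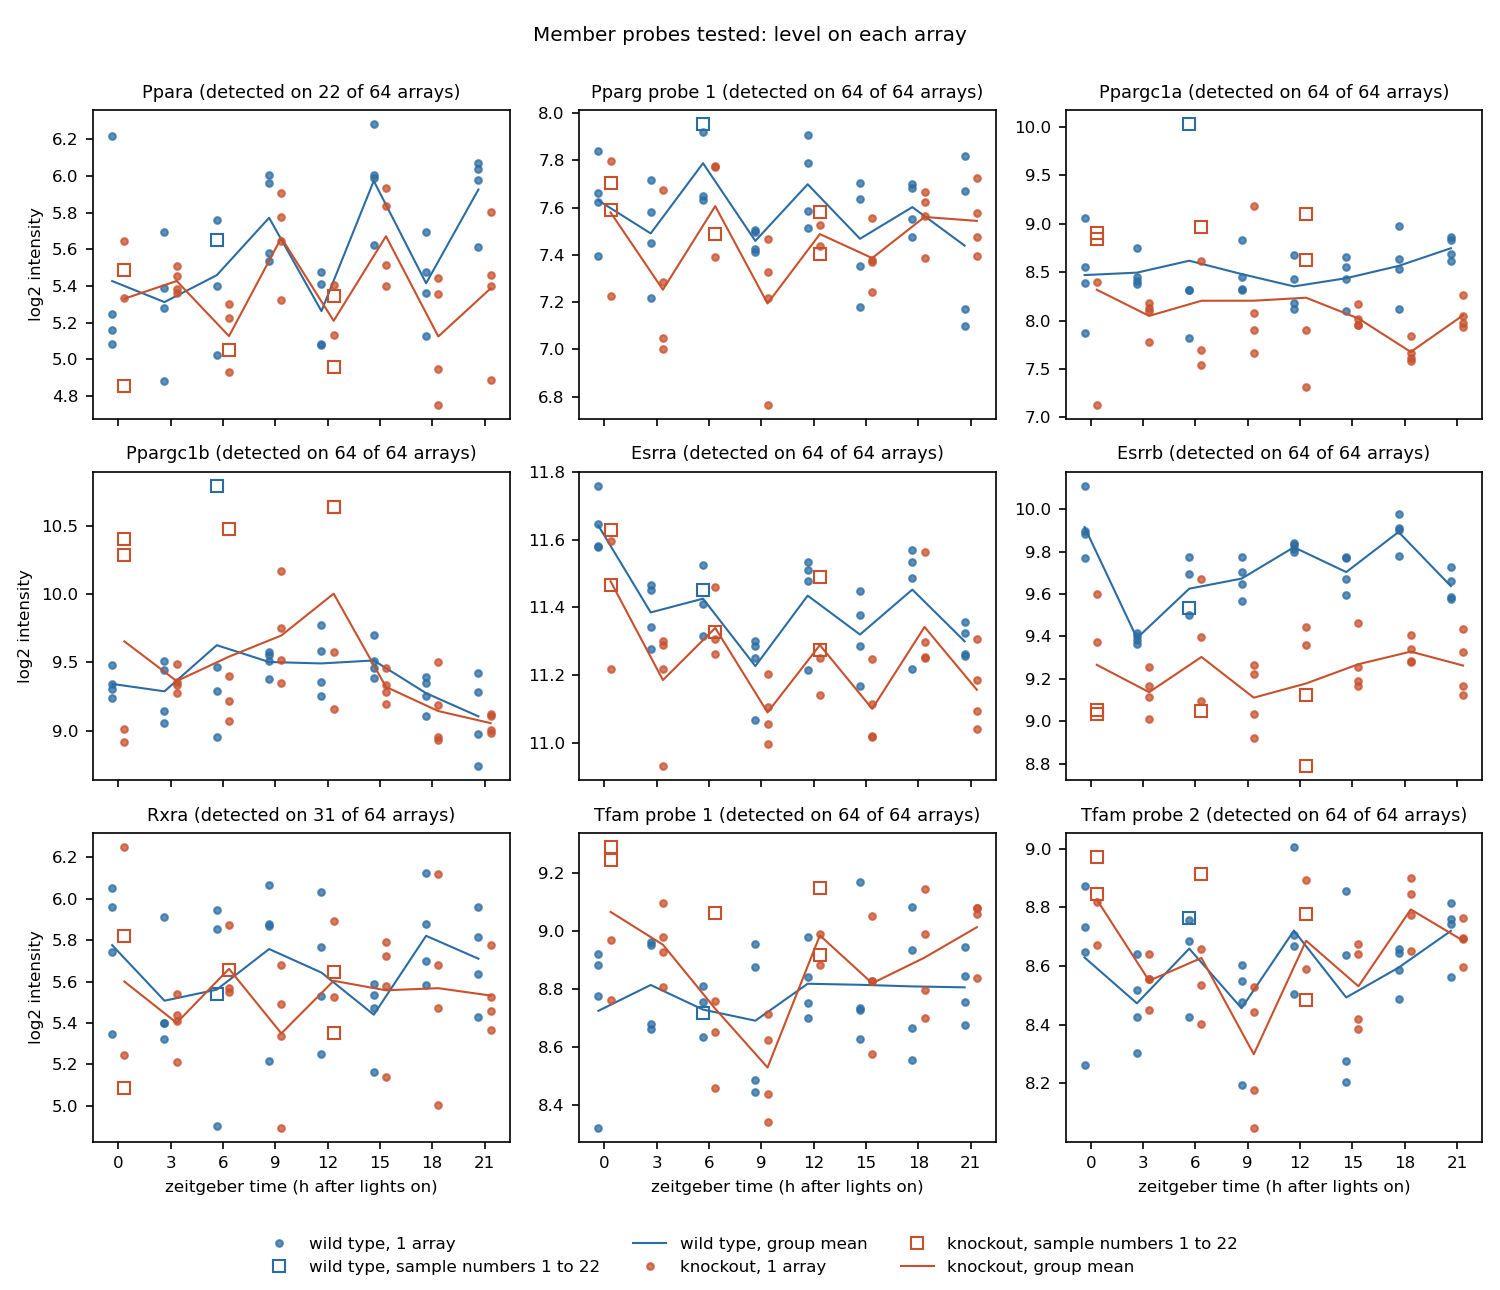
Level of each tested member probe on every array (vertical axes, log2 intensity, each panel with its own range) by zeitgeber time (horizontal axes, hours after lights on); points are single arrays, lines join group means of 4 arrays, and open squares are the 6 arrays with sample numbers 1 to 22. Esrrb is lower in knockout at each time with overlap at ZT 6 alone, and the squares lie above all other arrays for Ppargc1b, at 10.28 to 10.79.

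The other tested members gave no call in the 24 h mean. Ppargc1b encodes PGC-1β, the close relative of PGC-1α, and differed by 0.08 ± 0.10 (log2, SE, 95% interval -0.12 to 0.28, adjusted p = 0.573 in limma). Its level was 8.74, 9.38 and 10.79 (lowest, median, highest) in wild type and 8.92, 9.34 and 10.64 in knockout. The ranges nearly coincided. Without the 6 arrays Ppargc1b differed by -0.07 ± 0.05 (adjusted p = 0.391), so the sign of this small difference depends on them. Tfam differed by 0.10 ± 0.05 at its first probe (adjusted p = 0.118) and by 0.03 ± 0.05 at its second (adjusted p = 0.628). Levels of the first Tfam probe were 8.32, 8.75 and 9.17 in wild type and 8.34, 8.90 and 9.29 in knockout, and those of the second were 8.20, 8.64 and 9.00 against 8.05, 8.65 and 8.97. The first Tfam probe passed as higher under median scaling (0.20, adjusted p = 0.0154) and without the 3 most widely spread arrays, which are knockout ZT 9 replicates 170 and 206 and wild type ZT 6 replicate 1 (0.12, adjusted p = 0.044). Without the 6 arrays it moved the other way, to 0.05 (adjusted p = 0.519), and the second probe to 0.01.

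Pparg encodes the master receptor of fat cell formation. Its detected probe differed by -0.12 ± 0.05 (log2, SE, 95% interval -0.22 to -0.02, adjusted p = 0.0573 in limma), with levels of 7.10, 7.60 and 7.95 in wild type and 6.77, 7.47 and 7.80 in knockout. The genotypes overlapped at 8 of 8 times and the value missed the threshold narrowly. It passed with a filter of detection on 32 arrays (adjusted p = 0.0488), with a term for the 6 arrays (adjusted p = 0.0482) and with any of 14 single arrays left out, while without the 6 arrays it was -0.12 (adjusted p = 0.102). Of 10 adipocyte marker genes, those named here chosen after their values were seen, 9 were on the array and 3 were detected often enough to test. Plin1, Retn, Ucp1, Cidec and Fabp4 were detected on 0 of 64 arrays, Adipoq, the fat cell hormone adiponectin, on 9 wild type and 6 knockout arrays, and its difference was -0.09 ± 0.09. Cidea, a lipid droplet protein of brown fat, was higher by 0.81 ± 0.05 and Lipe, the hormone-sensitive lipase, was lower by 0.22, a call lost without the 6 arrays. The summed level of the adipocyte list was 9.10 to 9.74 in wild type and 9.53 to 10.44 in knockout. It takes in only the 3 tested genes. Of these Cidea alone was higher and alone was detected on every array, so the sum need not follow the amount of fat cells. The part of fat cells in the Pparg value was not tested. Rxra differed by -0.12 ± 0.08 (adjusted p = 0.232; -0.11 without the 6 arrays), with levels of 4.90, 5.67 and 6.13 in wild type and 4.90, 5.53 and 6.25 in knockout.

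**Figure D3:**
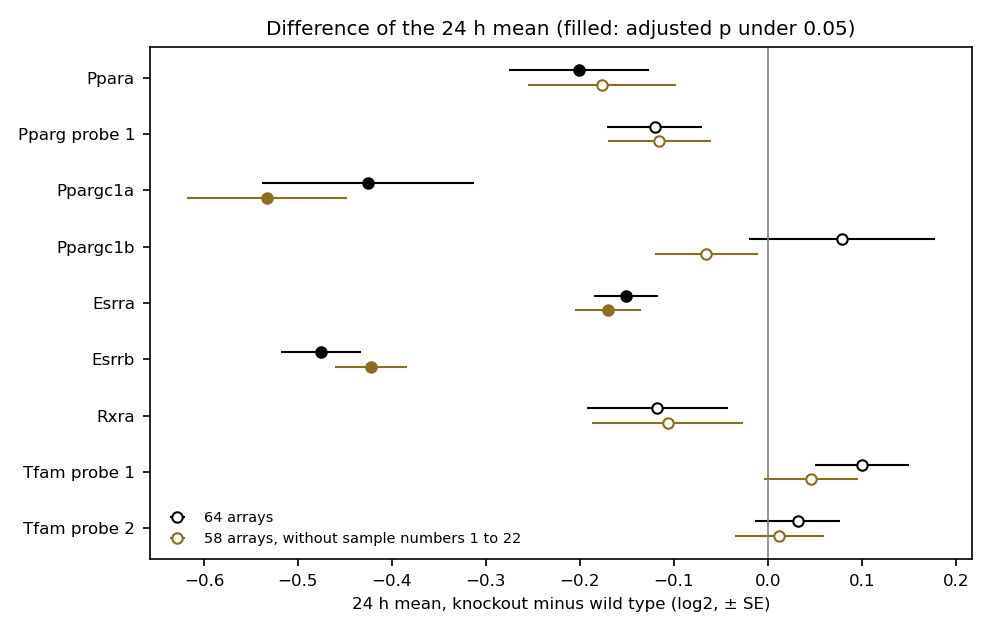
Difference of the 24 h mean, knockout minus wild type (horizontal axis, log2 units), for each tested member probe (vertical axis); points are limma estimates, bars are ± 1 SE, and filled points passed an adjusted p of 0.05. Over 64 arrays (black) Esrrb, Ppargc1a, Esrra and Ppara are filled, and over the 58 arrays without sample numbers 1 to 22 (ochre) Ppargc1a moves to -0.53 and Ppara is no longer filled.

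Marker genes of cardiomyocytes and other cell types are counted here against the 34.4% of all probes called. Of the cardiomyocyte markers tested, 1 of 9 was higher and 4 were lower, and their summed level was 17.2 to 17.4 in wild type and 17.1 to 17.4 in knockout. For endothelial cells 0 of 9 were higher and 5 lower, for fibroblasts 3 of 9 higher and 0 lower, for smooth muscle 1 of 9 higher and 3 lower, for myeloid cells 0 of 7 higher and 5 lower, for skeletal muscle 0 of 5 higher and 3 lower, and for red blood cells 0 of 4 higher and 1 lower. The shares called were 33.3% for fibroblasts and 25% for red blood cells, no higher than among all probes, and 44.4% to 71.4% for the other lists. When the 6 arrays were left out, endothelial counts became 0 higher and 3 lower, and smooth muscle counts 1 higher and 2 lower. Skeletal muscle then had 1 higher and 3 lower, and the other lists counted here did not change. Of all probes, 33.6% were called then. Of the skeletal muscle calls, Pvalb (detected on 5 wild type and 0 knockout arrays) and Atp2a1 (9 and 1), named after their values were seen, passed the filter only through the group where they are higher. Summed levels in wild type and knockout were 13.07 to 13.35 and 12.95 to 13.33 for endothelial cells, 13.42 to 13.93 and 13.22 to 13.93 for fibroblasts, 11.63 to 12.72 and 11.61 to 12.43 for myeloid cells, and 10.94 to 12.16 and 9.82 to 11.95 for skeletal muscle, so all overlapped. The part of cell makeup in the members' differences was not tested.

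The second question was whether the members follow a daily rhythm. None of the 9 tested member probes passed for a 24 h rhythm in wild type (3.55% of all probes passed), in knockout (1.16%) or for a difference of rhythm between genotypes (0.24%), in the limma cosinor fit. Fitted amplitudes ranged from 0.04 for the second Tfam probe to 0.19 for Ppargc1b in wild type and from 0.04 for Rxra to 0.29 for Ppargc1b in knockout (log2). The amplitude of Esrrb was 0.12 ± 0.04 in wild type (SE, adjusted p = 0.23) and 0.06 ± 0.04 in knockout (adjusted p = 0.687). That of Esrra was 0.08 ± 0.03 in wild type and 0.07 ± 0.03 in knockout, with fitted peaks near lights on in both, at ZT 23.6 and ZT 0.13. For the rhythm difference the adjusted p was 0.9997 for each member probe.

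In knockout the Tfam probes came nearest to the threshold, with amplitudes of 0.17 ± 0.05 and 0.15 ± 0.05 (log2, SE, adjusted p = 0.150 for both in limma), and they did not pass without the 6 arrays either (adjusted p = 0.0829 and 0.110). For Ppargc1b the call depended on the 6 arrays. Its knockout amplitude was 0.29 ± 0.10 (log2, SE, adjusted p = 0.23 in limma) over all arrays and 0.26 ± 0.06 (adjusted p = 0.0236) without the 6 arrays, with a fitted peak at ZT 9.58, where 1.51% of all probes passed. Knockout group means of Ppargc1b without the 6 arrays were 8.96, 9.36, 9.23, 9.70, 9.37, 9.32, 9.14 and 9.06 from ZT 0 to ZT 21. The highest, at ZT 9, came from arrays at 9.35, 9.52, 9.75 and 10.17. When knockout ZT 9 replicates 170 and 206 were left out as well, the amplitude was 0.18 and the call was lost (adjusted p = 0.223). The rhythm difference between genotypes did not pass for Ppargc1b without the 6 arrays (adjusted p = 0.842).

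A test of any difference among the 8 times, with no curve assumed, passed for Esrrb (adjusted p = 0.0181 in limma) and Ppara (0.032) in wild type, where 7.64% of all probes passed, and for Esrra (0.0255) and the second Tfam probe (0.0443) in knockout, where 10.9% passed. Without the 6 arrays both knockout calls were lost (0.144 and 0.0783) and Ppargc1b passed in knockout (0.0193), where 10.5% of all probes passed. In wild type Esrrb (0.0015) and Ppara (0.0219) still passed and Esrra did too (0.0485), where 13.1% passed. This test takes in any difference between the sets of times ZT 0, 6, 12, 18 and ZT 3, 9, 15, 21, whose hearts carry separate ranges of sample numbers; set and time of day cannot be told apart there. Esrra averaged 11.49 ± 0.14 (SD, 16 arrays) in wild type hearts of the first set and 11.31 ± 0.10 in the second, and 11.36 ± 0.15 against 11.13 ± 0.12 in knockout. Ppara ran the other way, at 5.39 ± 0.32 against 5.75 ± 0.36 in wild type and 5.20 ± 0.26 against 5.54 ± 0.27 in knockout. For the difference between genotypes in this test 0.165% of all probes passed, and no member probe did.

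In wild type hearts the order of Esrrb levels was ZT 0 (9.92 ± 0.14, SD, 4 arrays), ZT 18 (9.89 ± 0.08), ZT 12 (9.82 ± 0.02), ZT 15 (9.70 ± 0.09), ZT 9 (9.67 ± 0.09), ZT 21 (9.64 ± 0.07), ZT 6 (9.63 ± 0.13) and ZT 3 (9.39 ± 0.02). Neighbours in this order overlapped, apart from ZT 12 over ZT 15 and ZT 6 over ZT 3. Esrrb averaged 9.81 ± 0.15 (SD, 16 arrays) in wild type hearts of ZT 0, 6, 12 and 18. In those of ZT 3, 9, 15 and 21 it averaged 9.60 ± 0.14. The knockout values were 9.27 ± 0.23 and 9.20 ± 0.14. Set and time of day cannot be told apart in the wild type order. The 4 arrays of ZT 3 lay below all other wild type arrays. ZT 3 was singled out after its values were seen, and how many other probes show such gaps was not counted. In knockout hearts the group means of Esrrb spanned 9.11 at ZT 9 to 9.33 at ZT 18, and the test of any difference among times did not pass (adjusted p = 0.641 in limma).

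The third question was which members vary together from array to array within a group. The 6 arrays were separate from the others in Ppargc1b and tended to be high in Ppargc1a, so correlation values over all 64 arrays are not given. Ppargc1b was 10.28 to 10.79 on the 6 arrays and 8.74 to 10.17 on the other 58, with no overlap, a separation in the same direction that 1.69% of all probes showed (2.58% in either direction). Ppargc1a was 8.62 to 10.03 on the 6 arrays and 7.13 to 9.18 on the others. Both coactivator genes were high on the same arrays. Esrrb was 8.79 to 9.53 on the 6 arrays against 8.92 to 10.11. A term for the 6 arrays, added to the fit after seeing the data, came to 1.26 for Ppargc1b, 1.19 for Ppargc1a, 0.28 for the first Tfam probe and -0.34 for Esrrb (log2). Within the other 58 arrays, after group means were removed, none of the 28 pairs of the 8 tested genes passed after adjustment, and 2 had an unadjusted permutation p under 0.05.

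Ppargc1a and Ppargc1b had a Pearson r of 0.12 (permutation p = 0.538, adjusted p = 0.743) and a Spearman rho of 0.19 (permutation p = 0.21) over the 58 arrays, and r was 0.07 without the 2 arrays farthest from the median. Within ZT 3, 9, 15 and 21 r was -0.02 (32 arrays), and within the other 26 arrays of ZT 0, 6, 12 and 18 it was 0.24. The pair with the smallest p was Esrrb and Tfam, with r = -0.41 (permutation p = 0.0044, adjusted p = 0.124) and rho = -0.41 over 58 arrays, and r = -0.38 without the 2 farthest. Within ZT 3, 9, 15 and 21 it was -0.29 and within the other 26 arrays of ZT 0, 6, 12 and 18 it was -0.53.

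**Figure D4:**
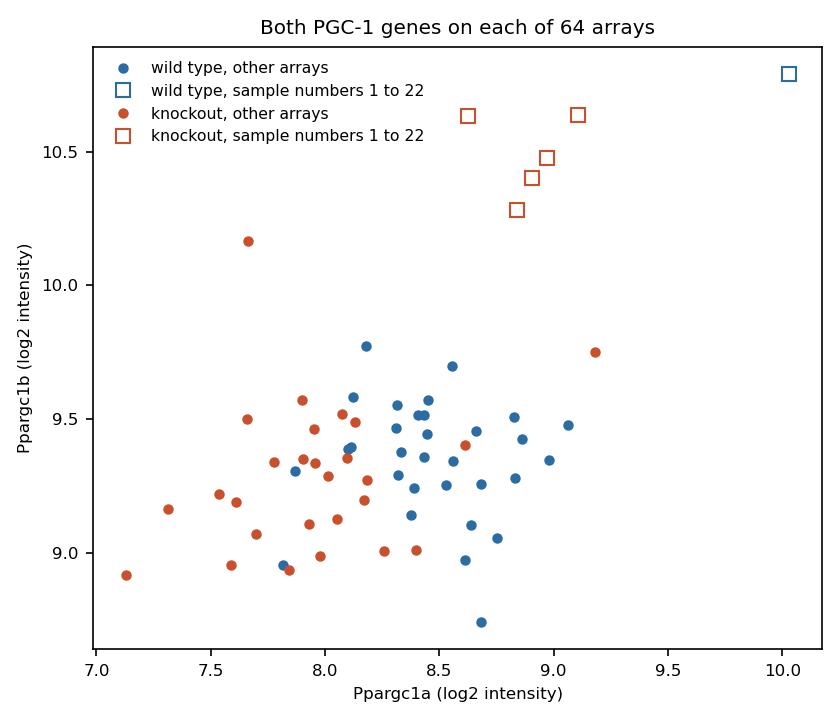
Level of Ppargc1a (horizontal axis, log2 intensity) against that of Ppargc1b (vertical axis, log2 intensity) on each of 64 arrays; filled points are the other 58 arrays and open squares the 6 arrays with sample numbers 1 to 22, coloured by genotype. The squares sit at the top, at 10.28 to 10.79 for Ppargc1b and 8.62 to 10.03 for Ppargc1a. The filled points show no clear slope (r = 0.12 after group means were removed).

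The genes whose group means followed a called member most closely are given as a description, over 16 group means that share arrays and normalization. For Esrrb these were Mknk2, a kinase of the translation factor eIF4E (Pearson r = 0.95), Herpud1, a membrane protein of the endoplasmic reticulum stress response (0.95), and Pank4, of the pantothenate kinase family (0.95). For Ppargc1a they were Phykpl, which breaks down phosphohydroxylysine (0.93), Dbt, a subunit of the branched-chain keto acid dehydrogenase (0.90), and Rora, a clock-linked nuclear receptor (0.90). These 3 were also nearest to Ppargc1a without the 6 arrays, at 0.95, 0.95 and 0.92. For Esrra they were Dtnbp1 (0.93), Mark2 (0.92) and Zmynd8 (0.91), and for Ppara Angel1 (0.81), Nit2 (0.81) and Mpnd (0.80). Neighbours of the other genes changed without the 6 arrays: Corin, Slc22a5 and Mknk2 were then nearest to Esrrb, Mark2, Snx18 and Fam120b to Esrra, and Oxsr1, Rapgef5 and Zfp637 to Ppara.

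The remaining promoter windows held few of the 7 motifs. The ERR element, the PPAR and RXR element and the E-box were found in no window used, and Ppargc1b was not scanned. These elements occur in 0.423%, 0.0396% and 7.15% of all 32851 windows. The core AGGTCA, present in 16.3% of windows, was found in 2 of the windows of Pparg and in 1 of those of Rxra. A D-box (6% of windows) lies in 1 Pparg window and a CACGTT (4.68%) in 1 Esrrg window. The windows of Ppara, Ppard and Tfam held none. No match says only that these letters are not in these 300 bases.

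Other genes of the pathway were described through 5 lists drawn up with earlier results of these data known, so their counts are a description, to be read against the 34.4% of all probes called. Among known PPAR targets, 1 of 32 tested genes was higher, 17 were lower and 14 did not pass, with a median difference of -0.13 (log2), against -0.007 over all probes, and 56.2% of the list were called. The counts were 1 and 16 when the 6 arrays were left out. Ech1, an isomerase of unsaturated fatty acid oxidation, had levels of 14.45, 14.66 and 14.94 (lowest, median, highest) in wild type and 14.04, 14.25 and 14.51 in knockout, ranges that overlapped slightly, and fell 1.35-fold (-0.43 ± 0.03, SE, adjusted p = 2e-21 in limma). Acot1, a cytosolic acyl-CoA thioesterase, fell by 0.89 on the log2 scale (± 0.08). Acot1 has closely similar relatives, so its probe may read them too. Plin4, a lipid droplet coat protein, fell by 0.46 and Slc25a20, the carnitine-acylcarnitine carrier, by 0.35. Fgf21, a secreted hormone named here after its values were seen, was the gene called higher; it was detected on 0 wild type and 6 knockout arrays. It passed the filter only through the group where it is higher, so it had to differ and no fold is given. Pdk4 and Mlycd had the smallest p for a rhythm difference in this list and did not pass (adjusted p = 0.912 and 0.9997). Plin4 passed for a rhythm in wild type (amplitude 0.24) and in knockout (0.18).

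Among targets of ERR and PGC-1, 4 of 39 tested genes were higher, 10 were lower and 25 did not pass, with a median of -0.03. The share called, 35.9%, is close to that of all probes. Leaving out the 6 arrays gave 4 higher and 9 lower. Fbp2, the muscle fructose bisphosphatase, had the largest difference of the list, with levels of 9.59, 9.99 and 10.77 in wild type and 8.09, 8.59 and 9.48 in knockout that did not overlap, a 2.69-fold fall (-1.43 ± 0.07, SE, adjusted p = 4.1e-26 in limma). Fndc5, the precursor of irisin, fell by 0.49, the insulin-responsive glucose transporter Slc2a4 by 0.30 and Perm1, a muscle regulator that acts with PGC-1 and ERR, by 0.28. Perm1 passed for a rhythm in wild type (amplitude 0.13 ± 0.03, adjusted p = 0.021), with 0.04 in knockout, and its rhythm difference did not pass. Named after their values were seen, the 4 genes called higher were Ckmt2, Cox7a1, Ppif and Sirt5, by 0.08 to 0.19; mitochondrial creatine kinase, a cytochrome oxidase subunit, cyclophilin D and a desuccinylase are their products. Most of the list, which is made largely of citric acid cycle and respiratory chain genes, did not pass. Ckm and Fbp2 had the smallest p for a rhythm difference, and neither passed.

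Of the genes that maintain mitochondrial DNA or act beside Tfam, 2 of 16 were higher and 4 lower (37.5% called), with a median of -0.02. With the 6 arrays left out, 2 were higher and 2 lower. Polrmt, the mitochondrial RNA polymerase that Tfam recruits, rose by 0.13 ± 0.03 (log2, SE, adjusted p = 0.00092 in limma), with levels of 9.94, 10.09 and 10.38 in wild type and 9.996, 10.24 and 10.61 in knockout. Tefm, its elongation factor, rose by 0.16. Polg, the mitochondrial DNA polymerase, fell by 0.22 and Gabpa, a nuclear factor acting on respiratory genes, by 0.23; Gabpa was detected on 26 wild type and 24 knockout arrays. Polg2 and Polrmt had the smallest p for a rhythm difference, and neither passed.

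Among coregulators and enzymes that modify PGC-1, PPAR or ERR, 6 of 33 were higher, 8 lower and 19 did not pass (42.4% called), with a median of 0.03. When the 6 arrays were left out, 7 were higher and 8 lower. Prkab2, a beta subunit of the energy sensor AMPK, rose 1.67-fold (0.74 ± 0.06, SE, adjusted p = 2.6e-16 in limma), from levels of 6.10, 6.69 and 7.21 in wild type to 6.83, 7.43 and 7.89 in knockout. The acetyltransferase Ep300 fell by 0.24, the transcription factor Foxo1, a partner of PGC-1α in liver, by 0.22, and Atf2, which acts on the Ppargc1a gene in brown fat, by 0.17. Klf15, a Krüppel-like factor of cardiac metabolism, was among the 2 with the smallest p for a rhythm difference, did not pass for it, and fell by 0.40; it was detected on 18 wild type and 8 knockout arrays. Fbxw7, the other, differed by 0.06 and passed neither test.

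Of the other nuclear receptors, 1 of 14 was higher, 2 were lower and 11 did not pass (21.4% called), with a median of -0.03. On the other 58 arrays 1 was higher and 3 were lower. The retinoic acid receptor Rarb fell by 0.36 (± 0.05, SE, adjusted p = 7.1e-08 in limma), with levels of 7.36, 7.92 and 8.53 in wild type and 6.80, 7.58 and 8.00 in knockout, and had a rhythm in wild type (amplitude 0.31). The orphan receptor Nr2f1 fell by 0.21 and its relative Nr2f6 rose by 0.17. Rxrg, the RXR member of striated muscle, differed by -0.14 ± 0.06 and did not pass over all arrays (adjusted p = 0.0621), though it did without the 6 arrays (adjusted p = 0.028). Thra and Nr3c1, both near background, had the smallest p for a rhythm difference and passed neither test.

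**Figure D5:**
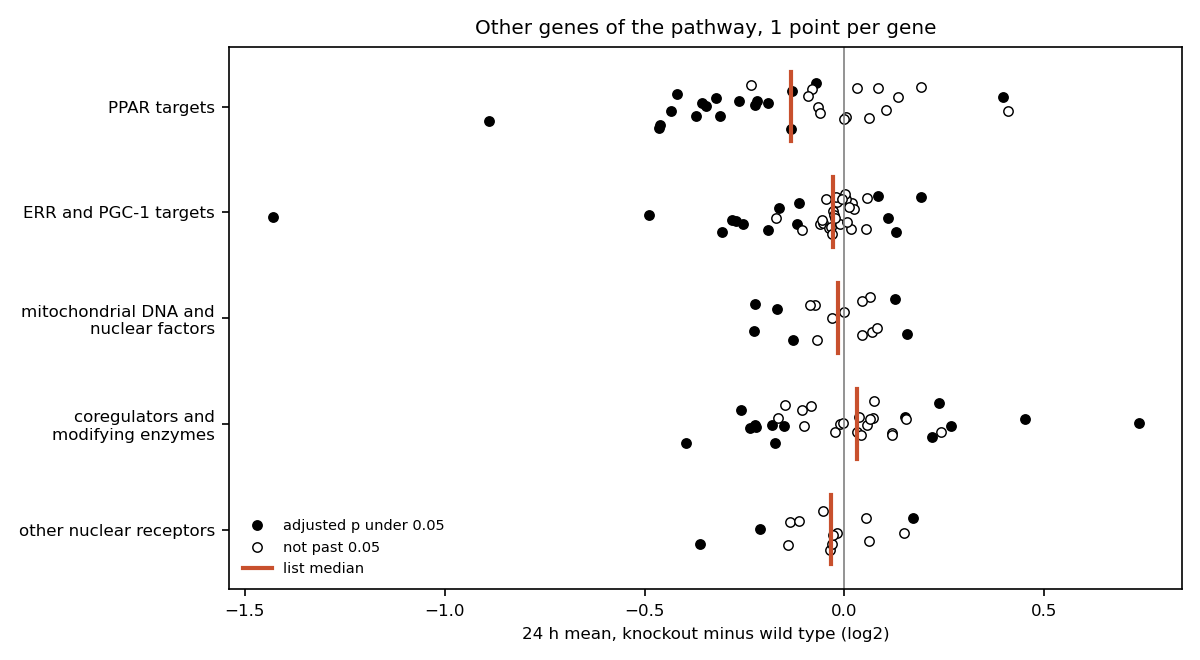
Difference of the 24 h mean, knockout minus wild type (horizontal axis, log2 units), of each tested gene in the 5 pathway lists (vertical axis); filled points passed an adjusted p of 0.05 in limma, and the coloured bar is the median of the list. The PPAR target list has the lowest median, -0.13, with 17 filled points below 0, and the farthest point to the left is Fbp2 at -1.43.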

How the data were processed

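Whole-heart RNA was measured on 64 Illumina bead arrays. The deposited table holds, per the file headers, a probe intensity that was not normalized and a detection p-value for each array; a separate table of processed intensity values was also deposited by the authors, with a making not given in the sources used here. Its columns rank probes as the intensity table does for the same array (Spearman correlation of 1 over 64 arrays), and 26.2% of its values are below 0, so it served as an alternative only. No sample column was left unused. Probes were named from the platform annotation, which gives 1 symbol to 23978 of 25697 probes and none to 1719.

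Intensities were background-corrected by normexp using the detection p-values (offset 16), quantile normalized and put on the log2 scale, and 12101 probes detected at 0.01 on 4 or more arrays were tested in limma 3.58.1 (R 4.3.3), with Benjamini-Hochberg adjustment over them. The scripts were tested on simulated data. Correlations used 100000 permutations within groups (numpy 2.4.6). Precision is limited by the number of arrays. The members, the gene lists and the tests were chosen with earlier results of these data known. Beside the members and Arntl, the genes named are, per list, the 4 with the smallest adjusted p in the 24 h mean and the 2 with the smallest in the rhythm difference, and, per called member, the 3 nearest by Pearson correlation; any other is said to be named after its values were seen. Alternatives changed the background correction, normalization, offset, filter, probes, array weights, arrays, time sets and curve shape. Promoter windows are RefSeq's, on GRCm38.p6.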

Additional observations from a re-analysis of the deposited data

Results flagged for a closer look

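Among the 144 groups of 4 arrays formed by 9 member probes in 16 groups, 4 held an array whose gap to its nearest neighbour was wide against the whole range of the group (Dixon's ratio above its 95% critical value). Chance gives about 1 in 20 such groups. Ppara read 6.22 on wild type ZT 0 replicate 87, the highest of its group, and without that array the Ppara difference was -0.17 and missed the threshold (adjusted p = 0.0516 in limma). Esrra read 11.57 on knockout ZT 18 replicate 123, the highest of its group. Rxra read 5.91 on wild type ZT 3 replicate 186, the highest of its group. The first Tfam probe read 8.84 on knockout ZT 21 replicate 192, the lowest of its group. None of these 4 arrays is among the 6 with sample numbers 1 to 22.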

How the results depend on the processing

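Esrrb stayed lower in the 24 h mean under each setting run, at -0.49 to -0.46 with single arrays left out and -0.55 to -0.37 otherwise. Of the member probes, 4 were called lower; 2 were under median scaling and 1 in ZT 0, 6, 12 and 18 alone, and 3 to 5 with single arrays left out. None was called higher, against 1 (Tfam) under median scaling and 1 without the 3 widest arrays. Ppara missed the threshold under median scaling (-0.18), no filter (-0.20), no time-set term (-0.20), without the 3 widest arrays (-0.18), in ZT 0, 6, 12 and 18 (-0.19) or ZT 3, 9, 15 and 21 alone (-0.21), without the 6 arrays (-0.18) and without those and the 3 widest (-0.16); single arrays left out gave -0.23 to -0.17. In ZT 0, 6, 12 and 18 alone Ppargc1a (-0.39) and Esrra (-0.13) missed it, as Esrra did under median scaling (-0.051). The F test over 8 group means, which assumes no 24 h curve, called 2 member probes in each genotype, where the cosinor called 0 for a rhythm. Cosinor rhythm calls in knockout rose to 1 (Ppargc1b) in ZT 3, 9, 15 and 21 alone, without the 6 arrays and with a term for them.

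At single times, median scaling left 0 member probes lower at ZT 9, 12, 15 and 18, with Esrrb at -0.50, -0.53, -0.34 and -0.49. Array weights gave 1 higher at ZT 0 and 2 lower at each of ZT 15, 18 and 21. A term for the 6 arrays gave 1 lower at ZT 6, 2 at ZT 18 and 1 at ZT 21. Leaving out the 3 widest or the 6 arrays gave 2 lower at ZT 18 and 1 at ZT 21, and both together gave 2 at each. At ZT 21 quantile normalization alone, an offset of 50, the deposited processed values, detection on 32 arrays and 1 probe per gene each gave 1. Single arrays left out gave 0 to 1 lower at ZT 6, 15 and 21 and 0 to 1 higher at ZT 0, and Esrrb at ZT 15 was -0.50 to -0.40. Correlated pairs numbered 2 over 64 arrays and 2 in ZT 0, 6, 12 and 18 alone. In both they were Ppargc1a with Ppargc1b and Esrrb with Tfam. They numbered 0 without the 6, in ZT 3, 9, 15 and 21 alone, and in the other 26 arrays of ZT 0, 6, 12 and 18. The cause of these changes was not tested.

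Over all probes, 2100 lower calls became 824 under median scaling and 1112 in ZT 3, 9, 15 and 21 alone, where 2059 higher calls became 1267. In the cosinor fits the 429 wild type rhythm calls ranged from 114 to 828 and the 140 knockout calls from 21 to 239. The F test over 8 group means, which assumes no 24 h curve, called 924 probes in wild type and 1319 in knockout. The 29 calls of a rhythm difference fell to as few as 10. The 597 lower and 705 higher calls at ZT 0 became 148 and 190 without the 6 arrays, and 1343 and 1391 with array weights. The 429 lower and 395 higher calls at ZT 12 became 165 and 188 without the 6 arrays. No called difference changed sign, but several uncalled ones did: without the 6 arrays Ppargc1b went from 0.08 to -0.07 in the 24 h mean, from 0.31 to -0.38 at ZT 0 and from 0.51 to -0.12 at ZT 12, and under median scaling Esrrb at ZT 6 went from -0.32 to 0.014. A slide block was not run, since no slides are named. No paired analysis was possible because each sample number belongs to 1 array and no groups share numbers. Signal close to background limits Ppara and Rxra, and allows no value for Ppard or Esrrg.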
